A study of Homo sapiens with 24 samples.

Results

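The genes described here are 40 genes of the centrosome, the mitotic spindle and the passage through mitosis, examined in 4 human lung cancer cell lines in which HEPACAM2 was manipulated. They were taken by name as a fixed list, because HEPACAM2 protein has a reported role at the centrosome together with tankyrase and AKAP9. All 40 had 1 row in every deposited table, of 21306 genes for A549, 20707 for H1299 and 60668 each for DMS454 and H1694. The list was divided by function into 15 genes with structural or regulatory roles at the centrosome and spindle, called non-periodic below, and 25 genes whose mRNA rises in late S phase, G2 or mitosis, called periodic. The division is by role and not by measured periodicity, and CKAP5, counted here with the non-periodic genes, also stands in common lists of G2 and M phase genes. The non-periodic genes are the tankyrases TNKS and TNKS2, the scaffold gene AKAP9 and 12 genes of centrosome and spindle structure. The periodic genes comprise 3 of centriole duplication, 7 mitotic kinases and cyclins, 4 of spindle assembly and motors, 8 of the kinetochore and its checkpoint, and 3 of the chromosomal passenger complex and abscission.

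Strand-specific RNA sequencing libraries of total RNA were made from 8 groups of 3 libraries, 24 in all, which the series describes as independent biological replicates. A549 and H1299, lines of non-small cell lung cancer, were each sequenced as control cells of genotype WT and as cells titled OE, of genotype HEPACAM2 overexpressed. DMS454 and H1694, labelled as small cell lung cancer lines, were each sequenced as control cells of genotype WT and as cells titled CRISPR, of genotype HEPACAM2 knockdown. The vector, the guide, the control construct and whether the cells were clones or pools are not given in these sources, and no further allele or agent is named for any group. Each comparison below is the titled manipulation minus the control of the same line.

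The centrosome organises microtubules. In interphase a pair of centrioles is surrounded by pericentriolar material built on scaffolds such as PCNT, CDK5RAP2 and AKAP9, which hold the gamma-tubulin ring complexes that nucleate microtubules. Before mitosis the pericentriolar material grows under the control of PLK1 and AURKA, the centrosomes become the spindle poles, and the checkpoint at the kinetochores holds back CDC20 until every chromosome is attached. HEPACAM2, also called MIKI, is an immunoglobulin-like protein that tankyrase modifies with poly-ADP-ribose and that then helps AKAP9 reach the mitotic centrosome. The mRNAs of most mitotic genes are repressed outside G2 and mitosis through a promoter element known as the CHR, which the DREAM and MuvB complexes bind, while NF-Y binds CCAAT boxes that stand near it.

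The promoter letters of these genes are shown because the elements that mitotic genes share can be read from them. RefSeq promoters on GRCh38.p14, from 250 bases before to 50 bases after the start, had an entry for 34 of the 40 genes, and none was matched for TNKS, CEP250, AURKA, TPX2, TTK and BIRC5. The CHR was searched as TTTGAA or TTCGAA and the CCAAT box as CCAAT, each on both strands. The CHR letters stood in 13 of 21 periodic promoters (61.9%), in 5 of 13 non-periodic ones (38.5%) and in 16.4% of all 35116 promoters of the same length. CCAAT stood in 14 of 21 periodic promoters (66.7%), in 6 of 13 non-periodic ones (46.2%) and in 34.6% of all. At least 2 CCAAT stood in 7 of the 21 (33.3%), in 4 of the 13 (30.8%) and in 10.75% of all. E2F sites, searched as TTTCCCGC, TTTGGCGC or TTTCGCGC on both strands, were present in 2 of the 21 and 2 of the 13, against 2.74% of all promoters. The 120 bases before the start follow for 6 periodic genes, with CHR and CCAAT letters on either strand in capitals. They are the first 6 by number of lines called, then by largest change, among those that hold such letters within these bases. PLK4, AURKB and MAD2L1, called in more lines than CENPF, PLK1 and BUB1B, hold none there and are therefore not shown.
CDC20, chr1:43358861-43358980, plus strand: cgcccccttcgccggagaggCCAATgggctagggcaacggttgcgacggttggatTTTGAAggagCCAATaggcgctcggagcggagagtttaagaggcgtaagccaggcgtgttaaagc
BUB1, chr2:110678064-110678183, minus strand: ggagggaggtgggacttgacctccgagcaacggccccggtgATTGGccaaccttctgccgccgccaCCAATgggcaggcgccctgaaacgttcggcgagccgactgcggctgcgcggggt
CCNB1, chr5:69167030-69167149, plus strand: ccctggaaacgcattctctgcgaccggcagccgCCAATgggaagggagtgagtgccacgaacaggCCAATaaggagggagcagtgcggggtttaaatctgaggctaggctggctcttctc
CENPF, chr1:214603075-214603194, plus strand: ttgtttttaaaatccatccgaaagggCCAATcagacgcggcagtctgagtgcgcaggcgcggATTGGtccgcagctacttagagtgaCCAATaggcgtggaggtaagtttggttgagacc
PLK1, chr16:23678769-23678888, plus strand: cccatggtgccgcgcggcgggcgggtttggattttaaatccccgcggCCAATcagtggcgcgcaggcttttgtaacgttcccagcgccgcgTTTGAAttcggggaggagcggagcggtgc
BUB1B, chr15:40160949-40161068, plus strand: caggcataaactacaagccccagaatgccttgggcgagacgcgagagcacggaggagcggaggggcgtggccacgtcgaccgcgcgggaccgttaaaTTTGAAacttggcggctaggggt
CDC20, PLK1 and BUB1B show the CHR letters in this window, and CDC20, BUB1, CCNB1, CENPF and PLK1 show CCAAT. Of the non-periodic genes, NUMA1 and TUBGCP3 are shown, which come first by number of lines called, then by largest change.
NUMA1, chr11:72080543-72080662, minus strand: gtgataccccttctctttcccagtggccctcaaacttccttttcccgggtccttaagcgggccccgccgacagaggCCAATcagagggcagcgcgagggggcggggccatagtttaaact
TUBGCP3, chr13:112588154-112588273, minus strand: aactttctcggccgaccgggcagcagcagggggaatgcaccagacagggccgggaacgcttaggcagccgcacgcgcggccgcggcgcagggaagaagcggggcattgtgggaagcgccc
NUMA1 holds 1 CCAAT and TUBGCP3 none of the letters searched in the whole promoter. Other non-periodic promoters hold more, and those of CEP152, CEP192 and CKAP5 each have CHR letters and 2 CCAAT. A match describes the letters only and says nothing about binding in these cells.

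Values are the authors' normalized counts, which are read counts divided by a size factor per library, and each table was normalized on its own. Levels of the 40 genes were therefore compared only within a line. HEPACAM2 itself (chr7:93188586-93226524, minus strand, GRCh38) was at 1.1, 0 and 0 normalized counts in the A549 controls and at 6074, 5864 and 6084 with overexpression. In H1299 it was at 3.49, 3.07 and 2.08 in the controls and at 27257, 24999.9 and 23710.2 with overexpression. In both lines the overexpressing libraries were far above the controls. In DMS454 HEPACAM2 was at 6430.1, 6543 and 6677 in the controls and at 11460.0, 11256 and 10844 in the libraries labelled CRISPR, a log2 fold change of 0.77 (SE 0.04, limma adjusted p = 1.6e-07). In H1694 it was at 3433, 3551 and 3688 in the controls and at 10124, 10545 and 10399 in the libraries labelled CRISPR, a log2 fold change of 1.54 (SE 0.04, adjusted p = 1.6e-12). The mRNA in both small cell lines was therefore higher, not lower, in the libraries whose genotype is given as knockdown. The position of the edit is not given in the sources used here, so the mRNA level does not check the protein. The authors' fold changes for these lines take the libraries labelled control as numerator, and the library codes in the labels are not explained. Whether the labels control and CRISPR are exchanged was not tested, and an exchange would turn every direction given for DMS454 and H1694. Each direction below refers to the libraries labelled CRISPR minus those labelled control.

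The A549 libraries held from 16358272 to 29838960 reads and those of H1299 from 12704476 to 20332419. DMS454 libraries held 15652553 to 30241598 reads, and for H1694 the range was 19682771 to 31770858. The fewest reads for any of the 40 genes in any library were 225 for CEP135 in A549 and 227 for SASS6 in H1299. As a check of the lines' identity, marker levels are set side by side across the separately normalized tables. Among neuroendocrine markers, CHGA and SYP were listed for all 4 lines. CHGA, which encodes chromogranin A, had at least 5043 normalized counts in every DMS454 library and 4437 in every H1694 library, against at most 30.8 in A549 and 5.31 in H1299. SYP, which encodes synaptophysin, had at least 3468 in DMS454 and 7819.95 in H1694, against at most 145 in A549 and 89.2 in H1299. H1694 was low in summed epithelial markers, with a sum of EPCAM, KRT8, KRT18 and CDH1 between 155 and 222, whereas the other lines had at least 14290.4. In H1299 that sum rests on KRT8 and KRT18. EPCAM there was at 2.08 to 11.6, below the 50.1 to 97.0 of H1694, and CDH1 was not listed. The endothelial marker CDH5 was at 3094 to 3770 in H1694, against at most 4.4 in A549 and 1.11 in DMS454, and was not listed for H1299. The endothelial markers PECAM1 and VWF were low beside it in H1694, at 17.3 to 32.1 and 3.37 to 11.3. VWF there was no higher than in DMS454, where it was at 4.44 to 20.0. Mitochondrial transcripts took between 3.14% and 8.14% of reads, and 0 of 13 mitochondrial genes passed the test in any line. Their values still leaned to 1 side in each line. The log2 fold change was below 0 for 10 of 13 in A549 (median -0.20), 12 in H1299 (-0.29) and 13 in DMS454 (-0.26). It was above 0 for 12 in H1694 (0.32). In H1299 the libraries numbered 1 stood apart. Deviations from the group mean across genes ran opposite in control 1 and OE 1 (r = -0.77), so H1299 results are also given without both. In DMS454 the library CRISPR 3 stood apart, and leaving it out raised the number of called genes from 3560 to 6605. A gene is called when its limma p, adjusted over all genes tested in that line, is under 0.05.

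In A549, HEPACAM2 overexpression went with higher mRNA of 18 of the 40 genes and lower mRNA of 3. Of the 25 periodic genes 12 were called higher and 1 lower, with a median log2 fold change of 0.12. Among the 15 non-periodic genes 6 were called higher and 2 lower, with a median of 0.02. The background in this line is high, since 44.4% of the 16707 genes tested were called, 22.5% higher and 21.9% lower, with a median of 0.00. The share of the periodic genes called higher was thus above that of all genes, and the changes were small, between -0.16 and 0.41. In 20 of the 40 genes every overexpressing library lay above every control and in 3 below, against 26.1% and 25.7% of all genes tested (51.8% in either direction). In bulk RNA a higher level of a periodic gene can come from more cells in G2 and mitosis or from more RNA per cell, which cannot be told apart here.

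The tankyrases and AKAP9 moved little in A549. TNKS, one of the poly-ADP-ribose polymerases that modify HEPACAM2, was at 857, 800.3 and 791 in the controls and at 903, 890.4 and 900.2 with overexpression, 0.14 higher on the log2 scale (SE 0.05, adjusted p = 0.034). TNKS2, its close relative, was at 1664, 1795 and 1797 in the controls and 1762, 1825 and 1750.3 with overexpression, and the groups overlapped (0.02, adjusted p = 0.71). AKAP9 (chr7:91940867-92110673), the scaffold that HEPACAM2 helps to bring to the pole, was at 689.6, 685 and 711 in the controls and 766, 811 and 758 with overexpression, a rise of 11.9% (0.16, SE 0.06, adjusted p = 0.018). The call for TNKS was lost when any library other than control 1 was left out, with adjusted p from 0.0651 to 0.113. That for AKAP9 was lost without control 1 (adjusted p = 0.0533) or OE 2 (0.112), and DESeq2 called neither.

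Among structural genes of the A549 centrosome, the centriole proteins CEP135 and CEP152 rose most. CEP135, a component of the centriole core, was at 247, 271 and 305 in the controls and at 357, 381 and 377 with overexpression (0.44, SE 0.08, adjusted p = 2.6e-05), and the groups did not overlap. CEP152, which recruits PLK4 to the centriole, was at 345, 313 and 342 in the controls and 383, 444 and 406 with overexpression (0.30, SE 0.08, adjusted p = 0.0014). PCNT, the large scaffold of the pericentriolar material, was at 725, 628 and 691 in the controls and 775, 844 and 829 with overexpression (0.26, adjusted p = 0.00031). All 3 kept the overexpressing libraries above every control. CKAP5, a microtubule polymerase, was 9.43% higher (0.13, adjusted p = 0.0054). TUBGCP3, a subunit of the gamma-tubulin ring complex, was at 1099.8, 1057 and 1008 in the controls and 939.5, 933 and 964 with overexpression (-0.16, adjusted p = 0.011), a call lost without control 1 (adjusted p = 0.088). NUMA1, which anchors microtubule minus ends at the poles, was at 3913, 4134 and 4011 in the controls and 3632, 3737 and 3565 with overexpression (-0.14, adjusted p = 0.0021). The other 6 structural genes, TUBG1, TUBGCP2, CDK5RAP2, NEDD1, CEP192 and CEP250, lay between -0.06 and 0.11 and were not called.

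Of the periodic genes in A549, CDC20 changed most. CDC20 (chr1:43358955-43363203), the activator of the anaphase-promoting complex, was at 2208, 2349 and 2326 in the controls and at 3047, 2997 and 3101 with overexpression, a rise of 32.9% (0.41, SE 0.04, adjusted p = 6.1e-12). CENPF, a kinetochore protein that appears in G2, was at 3344, 3421 and 3417 in the controls and 4198, 4304 and 4406 with overexpression (0.34, SE 0.04, adjusted p = 1.7e-10). PLK1, the polo-like kinase of centrosome maturation, was at 3444, 3637 and 3493 in the controls and 4356, 4351 and 4615 with overexpression (0.33, SE 0.04, adjusted p = 5.9e-10). In these 3 genes every overexpressing library was well above every control. CCNB1, the cyclin that activates CDK1 for mitotic entry, was at 4385, 4399.5 and 4346 in the controls and 4953, 4984 and 5201 with overexpression (0.20, SE 0.04, adjusted p = 9.1e-06). STIL, needed to build the procentriole, was at 571, 552 and 521 in the controls and 667, 574 and 709 with overexpression (0.24, SE 0.07, adjusted p = 0.0031). The groups did not overlap for either gene. PLK4, the kinase that starts centriole duplication, was at 627, 676 and 697 in the controls and 728, 764 and 768 with overexpression (0.18, adjusted p = 0.012). BUB1, a checkpoint kinase, was at 1749, 1916 and 1878 in the controls and 2053, 2002 and 2112 with overexpression (0.15, adjusted p = 0.0033).

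The rise in A549 did not extend to all mitotic genes. CDK1, CCNB2, CCNA2 and AURKA had log2 fold changes between -0.05 and -0.03 and were not called, while AURKB, the kinase of the passenger complex, rose by 13.9% (0.19, adjusted p = 0.00031). Of the spindle assembly genes TPX2, KIF11 and TACC3 rose by 0.13 to 0.18, and KIF2C, a microtubule-depolymerising kinesin, fell (-0.16, adjusted p = 0.008). The KIF2C groups overlapped, at 1523, 1545 and 1481 in the controls and 1273, 1314 and 1495 with overexpression. Without OE 1 or OE 2 no periodic gene was called lower, and without OE 3 there were 2. In the kinetochore class MAD2L1, TTK and BUB1B lay between -0.01 and 0.05. CEP55, which acts in abscission, rose by 10.1% (0.14, adjusted p = 0.0051), and INCENP and BIRC5 were at 0.03 and 0.05 without a call. Without control 1 the calls for PLK4 (adjusted p = 0.106) and BUB1 (0.0611) were lost, and DESeq2 did not call PLK4.

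**Figure D1:**
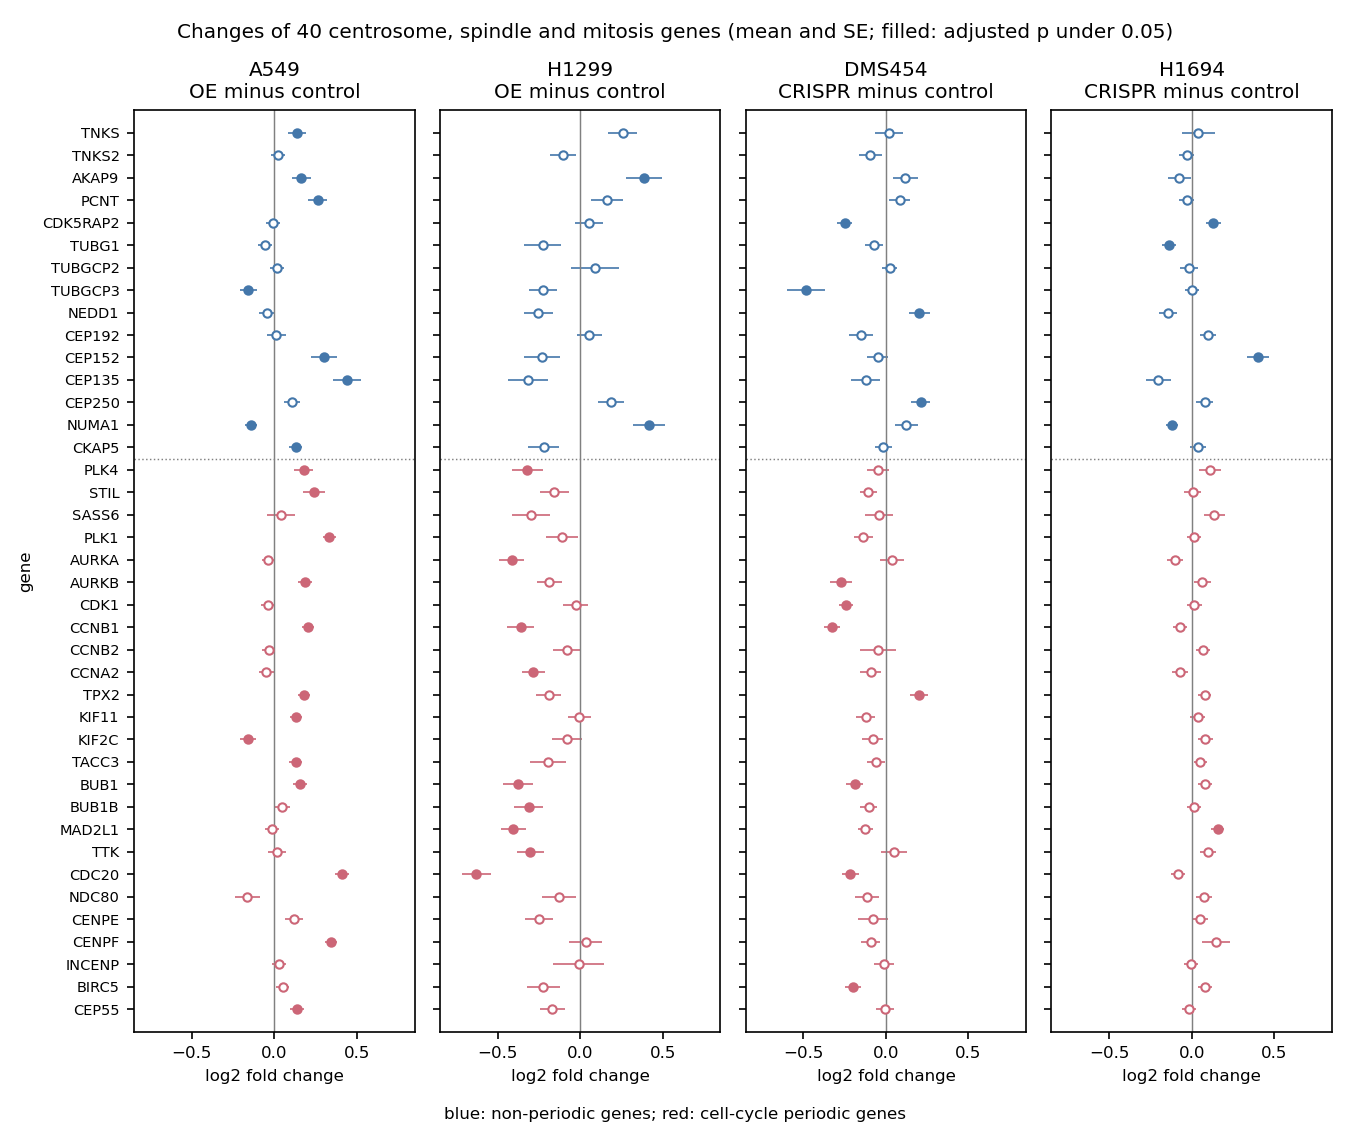
Log2 fold change (x axis, titled manipulation minus control) of each of the 40 genes (rows) in the 4 lines, with the SE as bars, non-periodic genes in blue, periodic genes in red, and filled points for adjusted p under 0.05. CDC20 is the rightmost red point in A549 at 0.41 and the leftmost in H1299 at -0.63.

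In H1299 the calls among the periodic genes were all in the lower direction. With HEPACAM2 overexpression 9 of the 25 were called lower and 0 higher, 16 were not called, the median log2 fold change was -0.20, and 24 of the 25 values were below 0. Of the 16192 genes tested, 28.8% were called, 13.5% higher and 15.3% lower, with a median of 0.00. Of the 15 non-periodic genes 2 were called higher and 0 lower, with a median of 0.05. At an unadjusted p under 0.05, 14 periodic genes were lower and 0 higher, and edgeR and DESeq2 called 10 and 9 lower and 0 higher. For the non-periodic genes 4 were higher and 4 lower at that p, and edgeR called 3 higher and 0 lower and DESeq2 2 higher and 0 lower. Of all 16192 genes, 3431 were lower and 3212 higher at that p, and edgeR and DESeq2 called 4666 and 4403. The non-periodic counts at that p rest on few genes and are near what all genes show. All overexpressing libraries lay above all controls for 4 of the 40 genes and below them for 16, against 20.5% and 22.8% of all genes (43.3% in either direction).

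CDC20 again changed most. It was at 7689.7, 6562 and 6831 in the H1299 controls and at 4166, 4720.5 and 4736 with overexpression, so that it fell by 35.3% (-0.63, SE 0.09, adjusted p = 0.0012) with every overexpressing library below every control. AURKA, the kinase of spindle pole assembly, was at 3464, 3741 and 3853 in the controls and 2956, 2667 and 2666 with overexpression (-0.42, SE 0.08, adjusted p = 0.0045). MAD2L1, the checkpoint protein that binds CDC20, was at 1306, 1353 and 1368 in the controls and 1035, 961 and 1048 with overexpression (-0.40, SE 0.07, adjusted p = 0.0043). These 3 calls held whichever single library was left out. BUB1 was at 4983, 5717 and 5811 in the controls and 4613, 4127 and 3966 with overexpression (-0.38, adjusted p = 0.013). CCNB1 was at 6549, 6892 and 7209.9 in the controls and 5913, 5074 and 5127 with overexpression (-0.36, adjusted p = 0.011). PLK4 was at 820.2, 926 and 983 in the controls and 772, 726 and 684 with overexpression (-0.32, adjusted p = 0.033). The groups of these genes did not overlap either, although in BUB1, CCNB1 and PLK4 the library OE 1 was the highest of the overexpressing libraries. The other called genes were BUB1B (-0.31), TTK, the checkpoint kinase also called MPS1 (-0.30), and CCNA2, the cyclin of S phase and G2 (-0.28). None of the 4 genes of spindle assembly and motors and none of the 3 of the passenger complex and abscission was called, and CDK1 (-0.03), KIF11 (-0.01) and CENPF (0.03) had values near 0.

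The H1299 counts depended on single libraries. Over all genes, the fits without 1 library called 2674 to 5429, against 4665 with all libraries. The number of periodic genes called lower was 3 without control 2, control 3, OE 2 or OE 3, 12 without control 1 and 11 without OE 1. Without both libraries numbered 1 it was 18 of 25, with 1 called higher, in a fit in which 27.9% of all genes were called lower and 27% higher. In that fit the log2 fold change was -0.50 for CDC20, -0.51 for AURKA and BUB1, -0.47 for CCNB1 and -0.44 for MAD2L1 and PLK4. The calls for BUB1, CCNB1 and PLK4 were lost without control 2, control 3, OE 2 or OE 3, with adjusted p from 0.0517 to 0.137.

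Among the non-periodic genes of H1299, NUMA1 and AKAP9 rose. NUMA1 (chr11:72002864-72080693, minus strand) was at 3208, 2765 and 2745 in the controls and at 3421, 4176 and 4055 with overexpression (0.42, SE 0.10, adjusted p = 0.014). AKAP9 was at 914, 1039.6 and 1052 in the controls and at 1506, 1299.2 and 1147 with overexpression, a rise of 30.8% (0.39, SE 0.11, adjusted p = 0.029). TNKS was at 573, 587 and 651 in the controls and at 741, 735 and 687 with overexpression, a difference of 0.26 that missed the threshold (adjusted p = 0.054) without overlap of the groups. It was called higher by edgeR, with TMM scaling and with a filter at 50. TNKS2 was at 1466, 1575 and 1663 in the controls and 1513, 1473 and 1393 with overexpression, and the groups overlapped (-0.10, adjusted p = 0.36). Without both libraries numbered 1, NUMA1 was at 0.58, AKAP9 at 0.22 and TNKS at 0.20, all called, TNKS2 was called lower (-0.18), and 6 non-periodic genes were called higher and 5 lower. The count called higher was 0 or 1 whichever single library was left out, and 4 were called lower without control 1 and 1 without OE 1. The call for NUMA1 was lost without control 2, control 3, OE 2 or OE 3, and that for AKAP9 without any library other than OE 3. CEP135 (-0.31, adjusted p = 0.08), NEDD1 (-0.25) and TUBGCP3 (-0.22) had the overexpressing libraries below every control without passing the test. NUMA1 overlaps IL18BP and LRTOMT on the other strand, and the strand setting of the counting is not given in the sources used here.

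**Figure D2:**
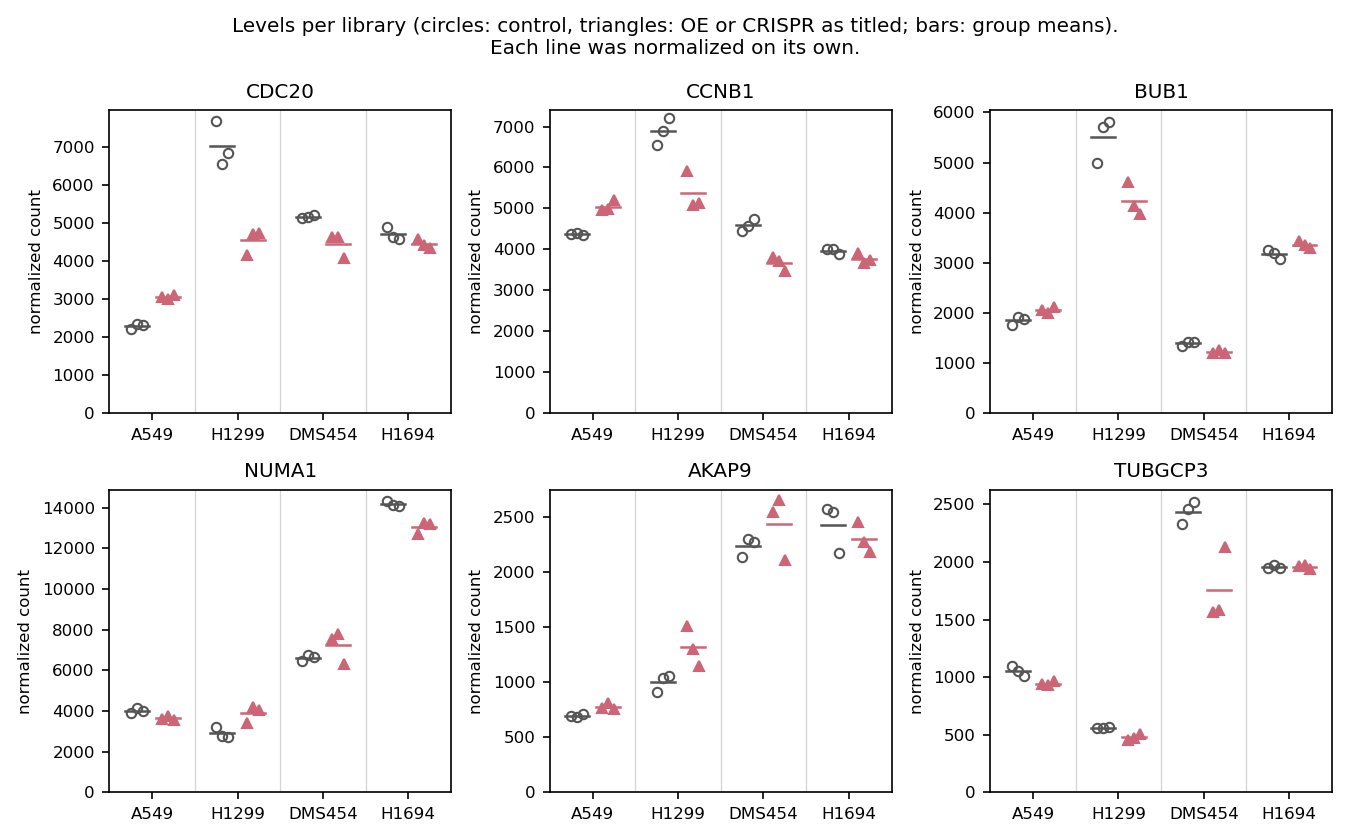
Normalized counts (y axis, from 0) of CDC20, CCNB1, BUB1, NUMA1, AKAP9 and TUBGCP3 in each of the 24 libraries, circles for controls, triangles for OE or CRISPR as titled and bars for group means. CDC20 lies higher with overexpression in A549 (2997 to 3101 against 2208 to 2349) and lower in H1299 (4166 to 4736 against 6562 to 7689.7), and levels are not comparable between lines.

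The responses of A549 and H1299 differed for most periodic genes. In a fit of the 12 libraries of both lines, the A549 response was above the H1299 response for 17 of 25 periodic genes and below it for 0, with a median difference of 0.34. Over the 14578 genes tested in both lines 41.2% differed, 22.7% with A549 above and 18.5% with A549 below, and the median difference was 0.02. The difference was 1.04 for CDC20 (SE 0.09, adjusted p = 1.5e-06), 0.57 for CCNB1 (SE 0.09, adjusted p = 0.00014), 0.53 for BUB1 (SE 0.10, adjusted p = 0.00074) and 0.50 for PLK4 (SE 0.11, adjusted p = 0.0023). These 4 genes were called higher in A549 and lower in H1299. NUMA1 was called in the reverse directions, with a difference of -0.56 (SE 0.11, adjusted p = 0.00092). By role, the differing genes were 7 of 8 of the kinetochore and checkpoint, 5 of 7 kinases and cyclins, 2 of 3 of centriole duplication, 2 of 4 of spindle assembly and 1 of 3 of the passenger complex and abscission. In the non-periodic class CEP135 (0.75, SE 0.15, adjusted p = 0.0012), CEP152 (0.53, adjusted p = 0.0066) and CKAP5 (0.35, adjusted p = 0.016) had the higher response in A549. None of TNKS, TNKS2 and AKAP9 differed between the lines by this test, with differences of -0.12, 0.13 and -0.23 and adjusted p of 0.34, 0.27 and 0.17. Without both H1299 libraries numbered 1 the differing periodic genes were 20 with A549 above and 1 below, against 30.2% and 27.9% of all genes. Leaving out any single library of either line gave 14 to 18 above and 0 below. With the replicate number as a block in the fit, 9 periodic genes were above.

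**Figure D3:**
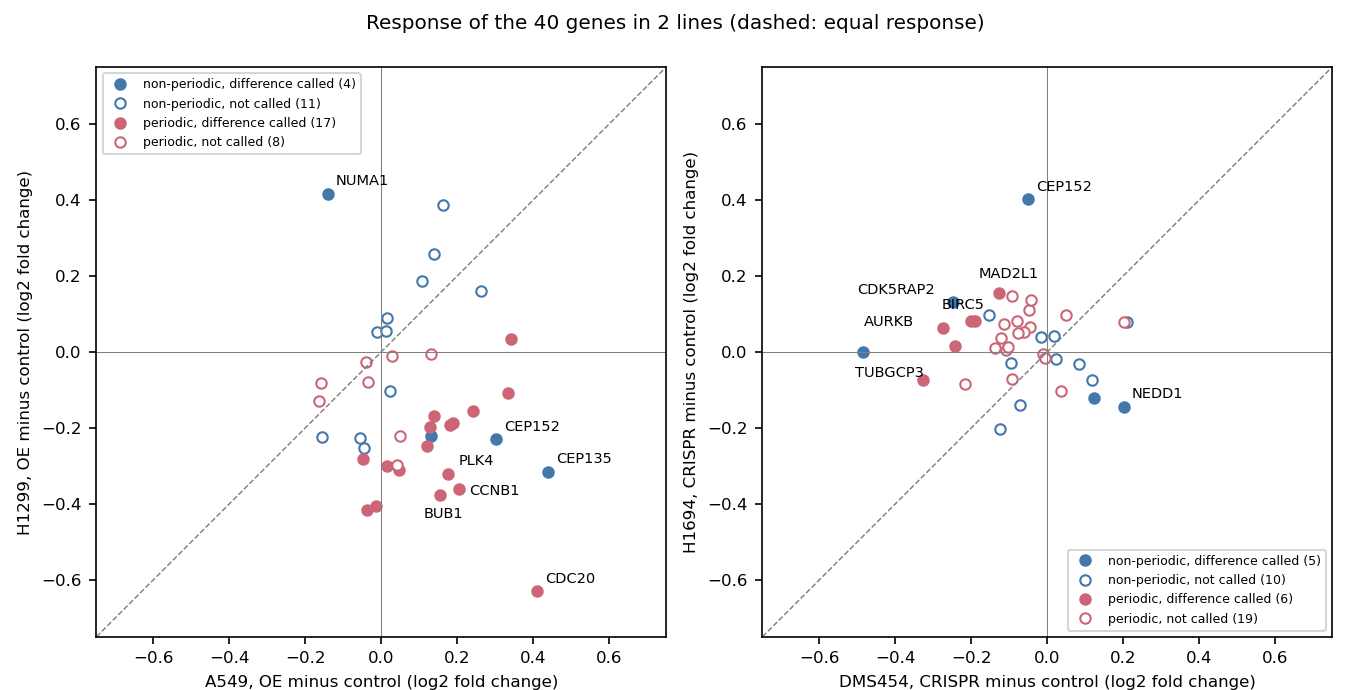
Log2 fold changes of the 40 genes in one line (x axis) against another (y axis), A549 and H1299 on the left and DMS454 and H1694 on the right, filled where the difference between the lines had an adjusted p under 0.05. On the left 17 of 25 periodic genes (red) lie below the dashed line of equal response and are filled, and on the right 6 periodic genes are filled.

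In DMS454, 6 of the 25 periodic genes were called lower and 1 higher in the libraries labelled CRISPR, in which HEPACAM2 mRNA was higher. The other 18 were not called, the median was -0.09, and 22 of 25 values were below 0. Of 18868 genes tested 18.9% were called, 9.15% higher and 9.72% lower, with a median of 0.00. The groups were separate for 3 of the 40 genes upward and 14 downward, against 18.3% and 18.4% of all genes (36.6% in either direction). CCNB1 was at 4449, 4582 and 4741 in the controls and at 3806, 3716 and 3469 in the libraries labelled CRISPR, so that it fell by 20.2% (-0.33, SE 0.05, adjusted p = 0.00053). AURKB was at 694, 769.5 and 758 in the controls and 606, 602 and 627 in the libraries labelled CRISPR (-0.27, SE 0.07, adjusted p = 0.012). CDK1, the central mitotic kinase, was at 2933, 3030.3 and 3051 in the controls and 2594, 2527 and 2489.8 in the libraries labelled CRISPR (-0.24, SE 0.04, adjusted p = 0.0021). No group overlapped the other in these 3 genes. CDC20 was at 5139, 5151 and 5200.2 in the controls and 4629.9, 4636 and 4091 in the libraries labelled CRISPR (-0.22, SE 0.05, adjusted p = 0.01), where CRISPR 3 was the lowest. BUB1 was at 1344, 1412 and 1409.9 in the controls and 1197, 1264 and 1191 in the libraries labelled CRISPR (-0.19, adjusted p = 0.023). BIRC5, or survivin, of the passenger complex, fell by 13.0% (-0.20, adjusted p = 0.012). TPX2, which activates AURKA on the spindle, rose instead, from 4971, 5038 and 5047 in the controls to 6112, 6013 and 5233 in the libraries labelled CRISPR (0.20, adjusted p = 0.022).

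Library CRISPR 3 stood apart in the periodic genes of DMS454. The median of the 25 periodic genes against the control mean was -0.22 in CRISPR 3, -0.07 in CRISPR 1 and -0.03 in CRISPR 2, while the controls lay between -0.03 and 0.02. Without CRISPR 3, 7 periodic genes were called lower and 2 higher. That fit called 6605 genes against 3560 with all libraries, so the shares of all genes given above do not apply to it. The count called lower was 2 without control 2 or control 3, 4 without CRISPR 1 and 5 without control 1, and 0 were called higher when any library but CRISPR 3 was left out. The calls for CCNB1 and CDK1 held whichever library was left out. The call for CDC20 was lost without control 2 (adjusted p = 0.0524) or control 3 (0.0588), those for BUB1 and AURKB without either of these or CRISPR 1, and that for TPX2 without any library other than CRISPR 3.

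Few structural genes of DMS454 were called, and these in both directions. CDK5RAP2 (chr9:120388869-120580170, minus strand), the scaffold that activates gamma-tubulin ring complexes, was at 2914, 3117 and 3005 in the controls and at 2519, 2582 and 2499 in the libraries labelled CRISPR (-0.25, SE 0.04, adjusted p = 0.0022). TUBGCP3 (chr13:112485005-112588205, minus strand) was at 2327, 2459 and 2525 in the controls and 1565, 1582 and 2131 in the libraries labelled CRISPR (-0.48, SE 0.12, adjusted p = 0.027). CRISPR 3 lay between the groups for TUBGCP3. NEDD1, which targets gamma-tubulin to the centrosome, was at 706, 773 and 758 in the controls and 889, 855 and 826 in the libraries labelled CRISPR (0.20, adjusted p = 0.042). CEP250, which links the centrosomes in interphase, was at 1131, 1136 and 1164 in the controls and 1267, 1431 and 1277 in the libraries labelled CRISPR (0.21, adjusted p = 0.026). Thus 2 of 15 non-periodic genes were called higher and 2 lower, against 9.15% and 9.72% of all genes. These counts rest on few genes and are near those shares. NUMA1 was at 6437, 6742 and 6641 in the controls and 7560.4, 7778 and 6327 in the libraries labelled CRISPR (0.12, adjusted p = 0.25). AKAP9 was at 2136, 2302 and 2269 in the controls and 2541, 2649 and 2112 in the libraries labelled CRISPR (0.12, adjusted p = 0.32), and TNKS (0.02) and TNKS2 (-0.09) were not called. For NUMA1 and AKAP9, CRISPR 3 lay below every control and the other libraries labelled CRISPR above every control. TNKS ranged from 999.7 to 1117 in the controls and from 933 to 1190.3 in the libraries labelled CRISPR, and TNKS2 from 991 to 1176 and from 1015 to 1059.8. The call for CDK5RAP2 held whichever library was left out. Those for TUBGCP3 and NEDD1 were lost without any library other than CRISPR 3 and that for CEP250 without any control or CRISPR 2. In the fit without CRISPR 3, with 6605 called genes against 3560, the non-periodic count was 5 higher and 3 lower. It was 1 higher without CRISPR 1, 0 higher without CRISPR 2 or any control, and 1 lower in each of these.

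In H1694, few of the mitotic genes passed the test. MAD2L1 was the 1 periodic gene called, also at an unadjusted p under 0.05 and by edgeR and DESeq2. It was at 2923, 2911 and 2962 in the controls and 3252, 3170.4 and 3385 in the libraries labelled CRISPR (0.16, SE 0.04, adjusted p = 0.017). The other 24 lay between -0.10 and 0.15, and the median of the class was 0.05. Of 17780 genes tested 17.6% were called, 8.73% higher and 8.9% lower, with a median of 0.00. At an unadjusted p under 0.05, 2709 were higher and 2759 lower. The groups were separate for 9 of the 40 genes upward and 5 downward, against 17.4% and 17.6% of all genes (35% in either direction). CDC20 was at 4906, 4635 and 4591 in the controls and 4573, 4423 and 4339.8 in the libraries labelled CRISPR (-0.08, adjusted p = 0.19). CCNB1 was at 4009, 4002 and 3879.5 in the controls and 3907, 3665 and 3737 in the libraries labelled CRISPR (-0.07, adjusted p = 0.25), and BUB1 was at 0.08 (adjusted p = 0.21).

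The clearest change among the 40 genes in H1694 was that of CEP152 (chr15:48712928-48811146, minus strand). It was at 816, 818 and 861 in the controls and at 989, 1124 and 1197 in the libraries labelled CRISPR, a rise of 32.2% (0.40, SE 0.07, adjusted p = 0.00054), and its call held whichever library was left out. CDK5RAP2 was at 2378, 2379 and 2436 in the controls and 2527, 2718 and 2636 in the libraries labelled CRISPR (0.13, adjusted p = 0.049). TUBG1, gamma-tubulin, was at 3886, 3732 and 3727 in the controls and 3620.2, 3389.7 and 3300.4 in the libraries labelled CRISPR (-0.14, adjusted p = 0.042). The groups were separate in these 3 genes. NUMA1 was at 14303, 14134 and 14096 in the controls and 12701, 13236 and 13189 in the libraries labelled CRISPR (-0.12, adjusted p = 0.029). AKAP9 ranged from 2169.6 to 2574 in the controls and from 2184 to 2451 in the libraries labelled CRISPR (-0.07, adjusted p = 0.5), with overlap. TNKS (0.04, adjusted p = 0.82) and TNKS2 (-0.03, adjusted p = 0.7) also overlapped, at 1322 to 1621 against 1359.8 to 1688 and at 2184 to 2345 against 2175 to 2216. In all, 2 of 15 non-periodic genes were called higher and 2 lower, near the 8.73% and 8.9% of all genes for so few genes. Without any single control library, or without CRISPR 2, the calls for CDK5RAP2, TUBG1 and NUMA1 were lost, and the former pair also without CRISPR 3. The call for MAD2L1 was lost without control 1, control 2 or CRISPR 3 (adjusted p 0.0575 to 0.0813). Without CRISPR 1 the counts were 2 periodic genes higher and 1 lower and 3 non-periodic genes higher, and without any other library 1 non-periodic gene was higher. TUBG1 has a close paralogue and a pseudogene, between which reads can be split.

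DMS454 and H1694 differed for 11 of the 40 genes. In the fit of their 12 libraries the DMS454 response was below that of H1694 for 6 of 25 periodic genes, AURKB (-0.34), MAD2L1 (-0.28), BIRC5 (-0.28), BUB1 (-0.27), CDK1 (-0.26) and CCNB1 (-0.25), and above it for 0. Of 15460 genes 20.2% differed, 10.4% with DMS454 above and 9.81% with it below. CDK5RAP2 was called lower in DMS454 and higher in H1694, with a difference of -0.38 (SE 0.06, adjusted p = 0.00031). TUBGCP3 (-0.49, adjusted p = 0.014) and CEP152 (-0.45, adjusted p = 0.0023) were also lower in DMS454 than in H1694 by response. NEDD1 (0.35, adjusted p = 0.007) and NUMA1 (0.24, adjusted p = 0.045) were higher. The 6 periodic genes were 6 in number whichever of the 12 libraries was left out, and without DMS454 CRISPR 3 a further 2 had the higher response in DMS454. The non-periodic genes with the higher response in DMS454 then numbered 4, and 1 when any other library was left out. The call for NUMA1 was lost when any library other than DMS454 CRISPR 3 was left out.

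**Figure D4:**
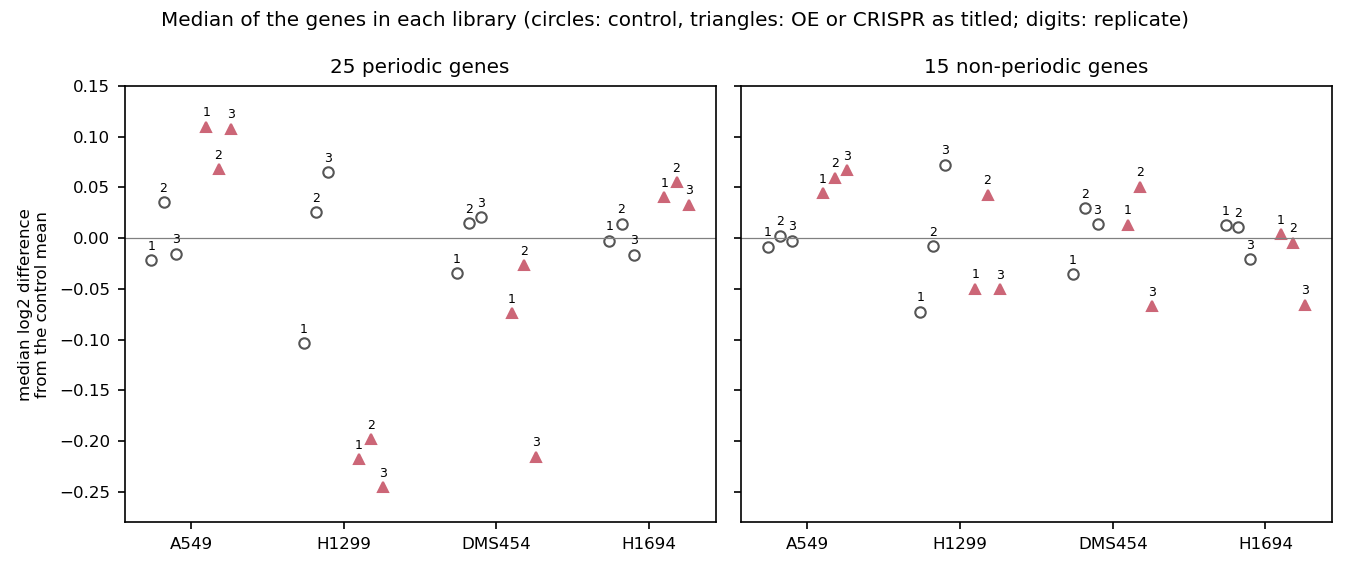
Median over the 15 non-periodic and the 25 periodic genes of the log2 difference from the control mean (y axis) in each library, circles for controls, triangles for OE or CRISPR as titled, with the replicate number beside each point. The periodic medians lie between -0.25 and -0.20 in the H1299 overexpressing libraries and between 0.07 and 0.11 in those of A549.

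Across the 4 lines no gene of the 40 was called in every line. CDC20, CCNB1, BUB1 and NUMA1 were called in 3 lines, 8 genes in 2, 20 in 1 and 8 in none. Of the 12 called in more than 1 line, 4 had the same direction in each, namely AKAP9, higher in A549 and H1299, TUBGCP3, lower in A549 and DMS454, CEP152, higher in A549 and H1694, and TPX2, higher in A549 and DMS454. The other 8 were called higher in one line and lower in another. Of the 4, only AKAP9 rests on lines with the same manipulation. For TUBGCP3, CEP152 and TPX2 overexpression is set beside libraries labelled CRISPR, so the same sign need not mean the same response to HEPACAM2. An exchange of the labels control and CRISPR would change these counts. Over all 24 libraries, deviations from the group mean had a median pairwise Pearson r of 0.27 among periodic genes and 0.14 among non-periodic ones, where the genes of a library share its depth and normalization. By line the values for periodic and non-periodic genes, each over 6 libraries, were 0.34 and -0.04 in A549, 0.57 and 0.27 in H1299 and 0.69 and 0.44 in DMS454. H1694 had the reverse order, with 0.12 and 0.31. Between a periodic and a non-periodic gene the median r was 0.16 over all 24 libraries. By line it was 0.07 in A549, 0.45 in H1299, 0.52 in DMS454 and 0.11 in H1694. Except in H1694, each of these was above the value among non-periodic genes. CDC20, BUB1, AURKA and CCNB2 have named pseudogenes with which reads can be shared. The authors' deposited tables were read at their DESeq2 adjusted p under 0.05, with the sign turned to treated minus control. There 11 periodic genes were higher and 1 lower in A549, and 9 were lower in H1299. In DMS454 1 was higher and 5 lower, and in H1694 1 was higher. The share of all genes passing in those tables was not counted, so these counts stand without a background.

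Other genes of the same processes were read from further lists. Of 46 other centrosome genes, 13 were called higher and 7 lower in A549, 3 higher and 7 lower in H1299, 2 higher and 8 lower in DMS454, and 4 higher and 4 lower in H1694. The shares of all genes called higher and lower were 22.5% and 21.9% in A549, 13.5% and 15.3% in H1299, 9.15% and 9.72% in DMS454 and 8.73% and 8.9% in H1694, and the count lower in H1299 and both counts in H1694 are near them. In A549 ALMS1 (0.46) and CEP164 (0.33), both of the basal body, rose and HAUS4 of the augmin complex fell (-0.46). In H1299 CCP110, the cap of the centriole, fell by 0.57 on the log2 scale and TUBGCP4 by 0.54. Of 36 other G2 and M phase genes, 15 were called higher and 8 lower in A549, 3 higher and 9 lower in H1299, 1 higher and 11 lower in DMS454, and 4 higher and 1 lower in H1694. The medians of that list were 0.09, -0.21, -0.15 and 0.02 in the same order. Its count lower in A549 is near the 21.9% of all genes. MYBL2, the MYB factor that binds MuvB to activate mitotic genes, went from a mean of 2247 to 3380 in A549 (0.59, adjusted p = 1.4e-16) and from 3586 to 2169 in H1299 (-0.73, adjusted p = 0.0022). In H1694 MYBL2 was higher as well (0.18, adjusted p = 0.014). CDC25B went the other way, lower in A549 (-0.35, adjusted p = 3e-11) and higher in H1299 (0.44, adjusted p = 0.0088). SPC24 fell in A549 (-0.39, adjusted p = 5.2e-07) and ECT2 in H1299 (-0.45, adjusted p = 0.0057). In DMS454 the largest falls of the list were those of the kinetochore gene SPC25 (-0.55), the spindle gene HMMR (-0.45) and PTTG1, or securin (-0.41), with adjusted p of 0.00012, 7.2e-05 and 0.0002. SPC25 was higher in H1694 (0.20, adjusted p = 0.012).

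The binding partners and substrates of tankyrase other than HEPACAM2 and NUMA1 formed a list of their own. In A549 7 of 15 tested were called lower and 1 higher, in H1299 1 of 16 lower and 3 higher, in DMS454 1 of 15 in each direction, and in H1694 2 of 16 lower and 1 higher. Of all genes, 21.9% were called lower and 22.5% higher in A549, and 15.3% and 13.5% in H1299. The shares were 9.72% and 9.15% in DMS454 and 8.9% and 8.73% in H1694. Each count of the list rests on few genes. AXIN2, a scaffold and target gene of Wnt signalling, went from a mean of 308 to 147 in A549 (-1.06, adjusted p = 1.2e-12). AMOTL2, an angiomotin, rose in A549 (0.90, adjusted p = 1.2e-15) and fell in H1299 (-0.57, adjusted p = 0.0055). AMOTL1 rose in H1299 (0.82, adjusted p = 0.00026), and AMOT fell in H1694 (-0.50, adjusted p = 0.0024). TNKS1BP1, which binds tankyrase, rose in H1299 (0.71, adjusted p = 0.012) and in H1694 (0.20, adjusted p = 0.013).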

How the data were processed

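Total RNA of 24 libraries, 3 per group, was sequenced with a strand-specific kit, per the labels' protocols. Per the submitters' processing notes, CASAVA, FastQC, Trim Galore, STAR and DESeq2 were used with build hg38. No version, counter, strand setting or annotation is stated there. The deposited value per library is a signal, namely a count divided by the authors' size factor, as is the deposited mean. The deposited fold changes and their SEs are on a log2 scale, the deposited p-values come from DESeq2, both raw and adjusted, and a deposited test statistic is a score. In DMS454 and H1694 the authors' fold changes take the control as numerator. Every value was a whole multiple of the library's smallest within 0.01, which gave back whole reads. Identifiers were matched to symbols for 99.5% of genes, and coordinates are from GENCODE 29.

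Genes that reached a mean of 10 normalized counts in either group were tested with limma 3.58.1 (trend and robust) on log2(normalized count + 1) in R 4.3.3, with Benjamini-Hochberg adjustment over all genes tested and a threshold of 0.05. All 40 genes passed this filter in every line. Differences between lines were tested as interactions over 12 libraries. A fold change is on that log2 scale. The fits were also run on simulated data, whose changes were larger than those of the 40 genes, so that run does not cover changes of this size. Alternatives were edgeR 4.0.16 and DESeq2 1.42.0 on recovered reads, TMM scaling, no filter, a filter at 50 normalized counts, 5 as pseudocount, a replicate block, and leaving out each library or both H1299 libraries numbered 1.

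The members and lists were chosen with earlier results of these data known. The named genes are HEPACAM2, TNKS, TNKS2 and AKAP9, in each line up to 5 called genes of largest change in each class, genes called in 3 lines or in opposite directions in A549 and H1299 or in DMS454 and H1694, and up to 3 called genes per further list and line with a mean of at least 50. Other genes are given by counts, with single values as examples chosen after they were seen, as were the promoters printed. Of the neuroendocrine markers, those listed in the tables of all lines are given, and the summed level of that list is not reported here.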

Additional observations from a re-analysis of the deposited data

Results flagged for a closer look

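The response to the manipulation differed between lines for a number of the 40 genes, by a test of the difference itself (limma interaction, adjusted p under 0.05). For A549 minus H1299 the difference in log2 fold change was 1.04 for CDC20, 0.57 for CCNB1, 0.53 for BUB1, 0.50 for PLK4, 0.44 for PLK1, 0.40 for STIL, 0.39 for MAD2L1 and 0.38 for AURKA. It was 0.37 for AURKB, TPX2 and CENPE, 0.36 for BUB1B, 0.33 for TACC3, 0.32 for TTK, 0.31 for CENPF and CEP55, and 0.24 for CCNA2. Of the non-periodic genes it was 0.75 for CEP135, 0.53 for CEP152, 0.35 for CKAP5 and -0.56 for NUMA1.

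For DMS454 minus H1694 the difference was -0.34 for AURKB, -0.28 for MAD2L1 and BIRC5, -0.27 for BUB1, -0.26 for CDK1 and -0.25 for CCNB1. Of the non-periodic genes it was -0.49 for TUBGCP3, -0.45 for CEP152, -0.38 for CDK5RAP2, 0.35 for NEDD1 and 0.24 for NUMA1. In A549 against H1299, TACC3, CENPF and CCNA2 lost the call when single libraries were left out, with edgeR (adjusted p = 0.069, 0.087 and 0.087) and with the replicate block, and TACC3 also with TMM scaling (adjusted p = 0.056). The replicate block also ended the calls for BUB1B, CENPE, CEP55, STIL, TTK, CEP152 and CKAP5 in A549 against H1299. NUMA1 in DMS454 against H1694 lost the call when single libraries were left out. The lines also differ in how far HEPACAM2 mRNA was changed, and the part of this in the differences was not tested.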

How the results depend on the processing

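No called log2 fold change of a named gene changed sign under any alternative, while values near 0 that were not called did for TNKS in DMS454 and H1694 and for TNKS2 in A549 and H1694 when single libraries were left out. The H1299 non-periodic genes went from 2 higher and 0 lower to 1 higher and 4 lower without control 1. On the recovered reads edgeR called 7523, 4666, 3513 and 3345 genes in A549, H1299, DMS454 and H1694, and DESeq2 6045, 4403, 2913 and 2326. In A549 the count of called genes was 7417, and no alternative other than leaving out a library moved a count of the 40 genes by more than 1.5 times. In H1299, without both libraries numbered 1, the called genes rose from 4665 to 8922, with 1 periodic gene higher and 18 lower and 6 non-periodic genes higher and 5 lower. In the difference between A549 and H1299 that setting gave 1 periodic gene lower, and 5 non-periodic genes higher and 2 lower. In DMS454, 1 non-periodic gene was higher with DESeq2, without a filter and with the replicate block, and 1 was lower without a filter, which ended the calls for NEDD1 and TUBGCP3. In H1694, DESeq2 gave 1 non-periodic gene higher and 1 lower, without calls for CDK5RAP2 and TUBG1, TMM scaling and no filter gave 1 higher, and 2 periodic genes were higher without a filter. Without a filter the difference between DMS454 and H1694 had 1 non-periodic gene higher.

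The replicate numbers share only a number. Same-numbered control and treated libraries correlated in their deviations from -0.11 to 0.04 in A549 and -0.77 to -0.41 in H1299. The range was 0.02 to 0.06 for DMS454, and for H1694 -0.17 to 0.33. With the replicate block, H1299 had 1634 called genes, with 1 periodic gene lower and 0 non-periodic genes higher. With this block the difference between A549 and H1299 had 9 periodic genes and 1 non-periodic gene higher. In H1694 the block gave 2 periodic genes higher. The cause of these shifts was not tested.

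Leaving out single libraries gave the following ranges. Called genes numbered 6442 to 6987 in A549, and 2674 to 5429 in H1299. For DMS454 the range was 1964 to 6605 and for H1694 1835 to 4510. Periodic genes called higher and lower numbered 10 to 13 and 0 to 2 in A549, 0 and 3 to 12 in H1299, 0 to 2 and 2 to 7 in DMS454, and 0 to 2 and 0 to 1 in H1694. Non-periodic genes higher and lower numbered 4 to 5 and 1 to 2 in A549, 0 to 1 and 0 to 4 in H1299, 0 to 5 and 1 to 3 in DMS454, and 1 to 3 and 0 to 2 in H1694. For A549 minus H1299 there were 5236 to 6819 differing genes, 14 to 18 periodic genes higher and 0 lower, and 3 to 4 non-periodic genes higher and 1 to 2 lower. For DMS454 minus H1694 there were 2405 to 4170, with 0 to 2 periodic genes higher and 6 lower, and 1 to 4 non-periodic genes higher and 3 to 4 lower. The size that could be called differed by line, since CKAP5 was called at 0.13 in A549 while CEP135 at -0.31 and TNKS at 0.26 were not in H1299.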

Other observations

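The genes of G1 and S phase, which license and start DNA replication, shared the contrast between A549 and H1299. Of 25 such genes, 11 were called higher and 4 lower in A549, and 15 lower and 0 higher in H1299, where 17 were lower and 0 higher at an unadjusted p under 0.05. Against the calls stand 22.5% and 21.9% of all genes called higher and lower in A549 and 13.5% and 15.3% in H1299. At that unadjusted p 3431 of 16192 genes were lower in H1299 and 3212 higher. UHRF1 rose from a mean of 1647 to 2353 in A549 (0.51, adjusted p = 3.3e-14) and CCNE1, a cyclin of S phase entry, from 515 to 656 (0.35, adjusted p = 7.1e-06). E2F2 fell there from 480 to 382 (-0.33, adjusted p = 0.00023). In H1299 the replication factor MCM10 fell from 964 to 608 (-0.67, adjusted p = 0.0025), E2F8 from 370.4 to 237 (-0.64, adjusted p = 0.0016) and CDC6 from 1281 to 868 (-0.56, adjusted p = 0.0015). Between the lines the response was above that of H1299 in A549 for 17 of the 25 and below it for 0, by limma over both lines, against 22.7% and 18.5% of all genes. In the small cell lines 3 were higher and 6 lower in DMS454, against 9.15% and 9.72% of all genes, and 5 higher and 2 lower in H1694, against 8.73% and 8.9%. In DMS454 TK1 and CCNE2 fell (each -0.26, adjusted p = 0.0038 and 0.0083) and GINS1 rose (0.26, adjusted p = 0.0018). E2F1 rose in H1694 (0.35, adjusted p = 3.1e-05), while CCNE1 (-0.36, adjusted p = 0.00055) and CCNE2 (-0.29, adjusted p = 0.0001) fell.

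Among p53 targets and cell cycle inhibitors, CDKN1A, which encodes p21, had the largest change in H1694. It fell from a mean of 7540.3 in the controls to 2887 in the libraries labelled CRISPR (-1.39, SE 0.05, adjusted p = 1.1e-10). Of the 20 genes of this list tested in H1694, 1 was called higher and 5 lower. Of 19 tested in each other line, 3 were called higher and 2 lower in DMS454, 6 higher and 4 lower in A549 and 8 higher and 4 lower in H1299. Of all genes, 8.73% were called higher and 8.9% lower in H1694, and 9.15% and 9.72% in DMS454. The shares were 22.5% and 21.9% in A549 and 13.5% and 15.3% in H1299. For so few genes, both A549 counts, the counts lower in DMS454 and H1299 and the count higher in H1694 are near them. In A549 GDF15 fell (-0.78, adjusted p = 6e-20) and TP53I3 rose (0.73, adjusted p = 4.9e-19), and in H1299, a line without p53, AEN fell (-1.04, adjusted p = 0.0001) and SESN2 rose (1.05, adjusted p = 0.002).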
